A study of Mus musculus with 6 samples.

Results

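Genes of red blood cells, 8 in number, were followed in RNA-seq of embryonic mouse hearts: *Slc4a1*, *Epb42*, *Rhag* and *Ermap* of the cell membrane, *Alas2* of heme synthesis, *Tfrc* of iron uptake, *Epor* of erythropoietin signalling and *Trim58* of late maturation. They were chosen by name, with earlier results of these data known, as 8 of the 54356 genes in the count table. Each was set beside the 10 globin genes of the same library. All 8 passed the filter for low counts. The hearts came from FlncgKO embryos (n = 3 libraries) and from littermate control embryos (n = 3 libraries), all on embryonic day 9.5 and of strain C57BL/6. In FlncgKO embryos the floxed *Flnc* gene, which encodes the actin crosslinker filamin C, is deleted throughout the embryo by *Sox2*Cre. The genotype of the controls is given only as control. The labels give whole heart as the tissue, the study's methods leave hearts and isolated ventricles both possible, and the number of hearts in a library is not given. P-values here therefore measure the spread between these libraries, which may be partly technical. *Flnc* itself averaged 159 ± 70.2 CPM in FlncgKO hearts and 738 ± 111 CPM in control hearts (SD, n = 3 each), with no overlap (log2 fold change -2.21, adjusted p = 0.0656 by edgeR and 9.99e-07 by DESeq2).

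At this stage the circulating blood consists mainly of primitive erythroid cells, large nucleated red cells that are made in the yolk sac and mature in the bloodstream. Such a cell takes up iron bound to transferrin, builds heme in its mitochondria, loads heme onto globin chains, and assembles a membrane held to a spectrin skeleton. A heart taken with blood in its lumen carries the RNA of these cells, so a level in whole tissue depends both on how much blood was taken and on how much RNA each red cell holds. In bulk libraries, a different number of red cells and a different amount of RNA per red cell cannot be told apart. The ratio of a gene to the globins within 1 library is the measure used below for the part of a difference that the globins do not share.

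Of the 8 genes, 2 carry in their mRNA the letters of the iron-responsive element, a hairpin that iron regulatory proteins bind when iron is scarce. In the 5′ UTR of *Alas2* this binding is known to hold back translation, and in the 3′ UTR of *Tfrc* it is known to protect the mRNA. The elements are shown because they are the known point at which iron acts on these 2 transcripts. The search took a C, any 5 bases, the loop CAGTGN with any last base but G, and 5 bases that pair with those before the loop (G with U allowed), on the sense strand of GENCODE protein-coding transcripts. A match was found in 222 of 21877 genes (1.01%) and in 5 of the 59 members and fixed heme and iron genes searched, which were *Alas2*, *Tfrc*, the ferritin chains *Fth1* and *Ftl1*, and the iron exporter *Slc40a1*. Capitals mark the loop, and positions are on GRCm38. The *Alas2* element lies on chromosome X, plus strand, across the junction of the first exons, with its first base at 150547458 and its last at 150552149. The 4 *Tfrc* elements lie in the 3′ UTR on chromosome 16, plus strand, at chr16:32631219-32631247, chr16:32631598-32631626, chr16:32631663-32631691 and chr16:32631710-32631738, in this order.
Alas2: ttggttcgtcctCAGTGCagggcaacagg
Tfrc element 1: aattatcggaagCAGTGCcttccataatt
Tfrc element 2: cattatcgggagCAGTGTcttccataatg
Tfrc element 3: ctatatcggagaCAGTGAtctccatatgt
Tfrc element 4: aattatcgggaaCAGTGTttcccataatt

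Promoters were read from RefSeq (GRCm38.p6), as 250 bases before and 50 after each start site. The table holds 7 of the 8 genes, without *Slc4a1*, and *Tfrc* has 2 entries. The letters AGATAA or TGATAA, which the erythroid factor GATA1 is known to bind, were searched on both strands. They stood in the promoters of *Alas2*, *Epb42*, *Epor*, *Ermap* and *Rhag*, 5 of the 7 genes, and in 18.6% of all 32851 RefSeq promoters of the same length. Neither *Tfrc* nor *Trim58* had them in these windows. The CACCC-box letters CCACACCC or CCGCACCC, on both strands, stood in 1 of the 7, *Tfrc*, and in 5.31% of all promoters. The 60 bases around each of the 5 matches are shown because these 5 genes are among the 6 whose levels below were high in control replicate 3, as the globins were. Each sequence reads in the direction of its gene, and capitals mark the match, which here always lies on the opposite strand. A match is a description of the letters and not of binding. The windows are chrX:150547304-150547363 (plus strand, match 86 bases before the start site) for *Alas2*, chr2:121037068-121037127 (minus strand, 226 bases) for *Epb42*, chr9:21963598-21963657 (minus strand, 54 bases) for *Epor*, chr4:119190030-119190089 (minus strand, 67 bases) for *Ermap* and chr17:40811091-40811150 (plus strand, 31 bases) for *Rhag*.
Alas2: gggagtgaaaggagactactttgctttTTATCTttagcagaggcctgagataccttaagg
Epb42: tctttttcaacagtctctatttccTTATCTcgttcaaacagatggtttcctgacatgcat
Epor: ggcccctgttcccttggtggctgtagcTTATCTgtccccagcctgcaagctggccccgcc
Ermap: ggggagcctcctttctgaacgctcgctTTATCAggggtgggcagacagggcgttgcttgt
Rhag: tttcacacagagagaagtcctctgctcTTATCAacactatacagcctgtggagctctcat

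The libraries held 19208859 to 23123255 estimated counts, and the TMM factors, which correct for RNA composition, lay between 0.983 and 1.02. Levels are CPM, a gene's share of the library's TMM-scaled total. The comparison used the quasi-likelihood test of edgeR over 16048 genes with Benjamini-Hochberg adjustment at 0.05, and log2 fold changes are FlncgKO minus control. Cardiomyocyte markers were abundant in every library, at a summed 30235 to 35464 CPM in FlncgKO and 33435 to 37473 CPM in control hearts. The 4 Y-linked genes summed to 80.7, 3.88 and 4.28 CPM in FlncgKO replicates 1, 2 and 3, against 117 to 140 CPM in the controls. The sex of the embryos thus largely went with genotype, and differences by sex and by genotype cannot be told apart here. With these Y-linked genes as a covariate, none of the 8 genes and none of all genes tested passed the edgeR test. In that fit 2 of the 8 (*Tfrc* and *Trim58*) had an unadjusted p under 0.05, as did 906 of 16048 genes with a positive fold change.

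Both *Tfrc* and *Trim58* rose in FlncgKO hearts, and the other 6 genes did not pass the test, with fitted folds of 1.66 to 1.83. This fit had no block for the replicate number, and with such a block *Epb42* passed as well (adjusted p = 0.0493 by edgeR). By edgeR 2 of the 8 were called higher, where 1.06% of all genes tested were, and by DESeq2 the same 2, where 6.19% were. *Trim58*, with 7, 4 and 11 counts in the controls, passed the filter for low counts through its FlncgKO libraries. Since the 8 were also chosen with earlier results known, these shares do not test them as a set. None of the 8 was lower by either tool or at an unadjusted p under 0.05. Over all genes tested, edgeR gave an unadjusted p under 0.05 to 13.3% with a positive and 8.84% with a negative fold change, and 2.26% were lower by DESeq2. In these 2 genes all FlncgKO libraries lay above all control libraries, as they did in 15.7% of all genes. The median log2 fold change of the 8 was 0.82, beside 0.0087 over all genes tested.

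The plot of the 8 genes and the summed globins by library shows that the 6 genes that did not pass shared 1 pattern, in which control replicate 3 stood with the FlncgKO libraries and away from the other controls. The summed globins had the same pattern. They reached 8332, 7284 and 12434 CPM in FlncgKO replicates 1, 2 and 3, against 3054, 2984 and 8939 CPM in control replicates 1, 2 and 3. The globin level of control replicate 3 was thus above those of FlncgKO replicates 1 and 2. On the log2 scale the groups differed by 1.07 in summed globins (exact permutation test, two-sided, p = 0.3, where 3 against 3 libraries allow no p below 0.1). All 8 globin genes that passed the filter had positive fold changes, and none passed the edgeR or the DESeq2 test. By edgeR 1 (*Hbq1b*) had an unadjusted p under 0.05 (13.3% of all genes, higher).

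**Figure D1:**
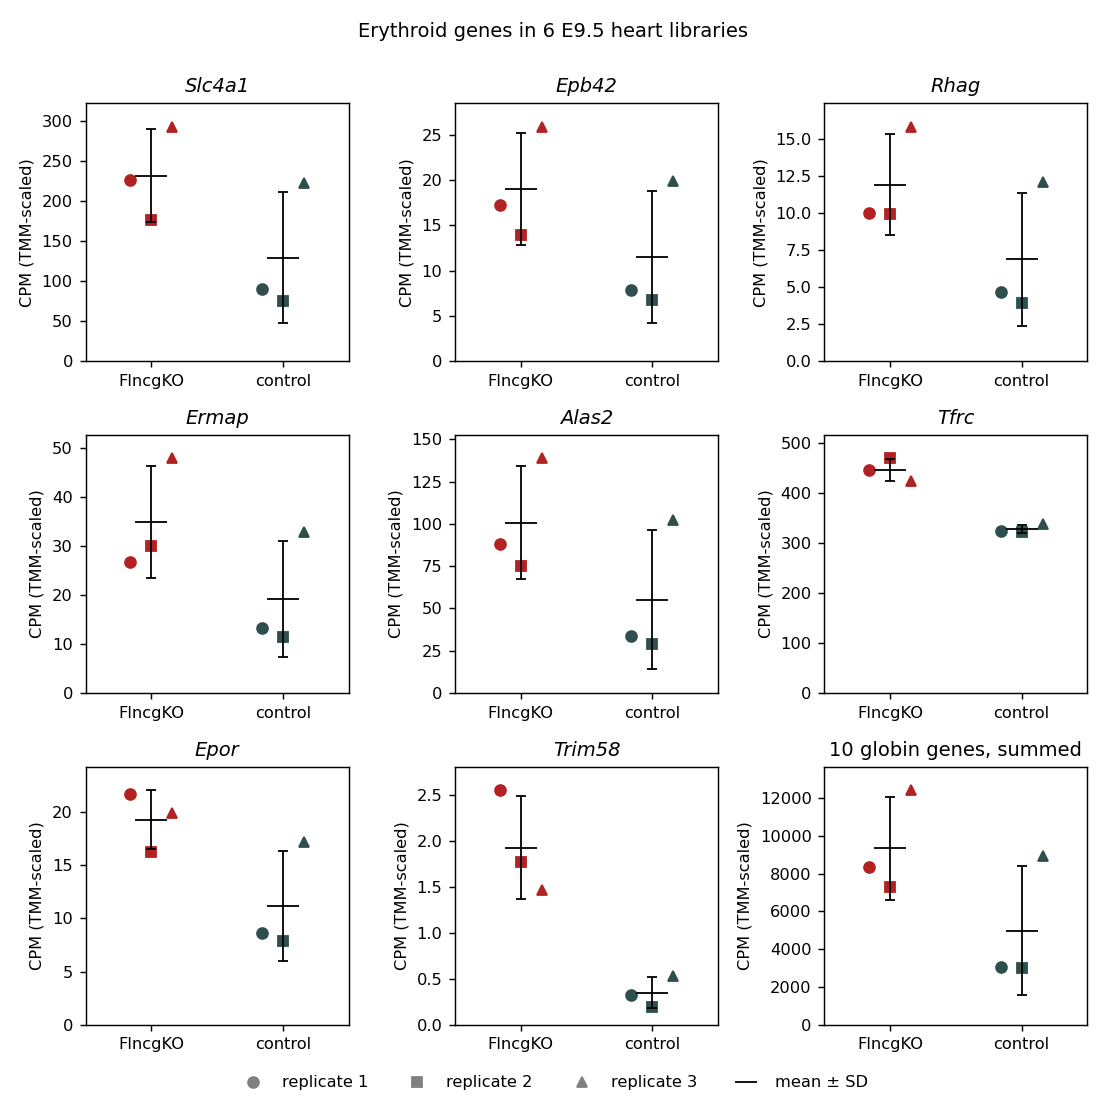
CPM of the 8 erythroid genes and of the 10 globin genes summed, in each FlncgKO (red, left) and control (dark, right) library, with the marker shape giving the replicate number and the bar the mean ± SD (n = 3). *Tfrc* and *Trim58* separate the groups, while in the other panels control replicate 3 lies within or near the FlncgKO libraries.

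*Slc4a1* encodes band 3, the chloride-bicarbonate exchanger and the most abundant protein of the red cell membrane. It had 226, 177 and 293 CPM in FlncgKO replicates 1, 2 and 3, against 90.0, 75.2 and 223 CPM in control replicates 1, 2 and 3. The groups overlapped, since control replicate 3 exceeded FlncgKO replicate 2. The log2 fold change was 0.84 (SE 0.51, adjusted p = 0.414 by edgeR, 95% interval -0.52 to 2.20). At least 99.9% of its counts came in every library from the one transcript that codes for the full protein.

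*Epb42* encodes protein 4.2, which binds band 3 to ankyrin. Its levels were 17.3, 14.0 and 25.9 CPM in FlncgKO hearts, against 7.82, 6.76 and 19.9 CPM in control hearts. *Rhag*, the Rh-associated glycoprotein, had 10.02, 9.93 and 15.9 CPM in FlncgKO hearts, against 4.67, 3.91 and 12.1 CPM in control hearts. *Ermap*, an erythroblast membrane protein that carries the Scianna blood group in humans, had 26.6, 30.0 and 47.9 CPM in FlncgKO hearts, against 13.2, 11.5 and 32.8 CPM in control hearts. In all 3 genes the highest control library, replicate 3, lay above the lowest FlncgKO library, and the highest library of all was FlncgKO replicate 3. Their log2 fold changes were 0.73 (SE 0.51), 0.79 (SE 0.49) and 0.86 (SE 0.51), with adjusted p of 0.463, 0.404 and 0.390 by edgeR.

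*Alas2* encodes the erythroid 5-aminolevulinate synthase, which makes the first precursor of heme. Its levels were 88.4, 75.3 and 139 CPM in FlncgKO replicates 1, 2 and 3, against 33.7, 29.2 and 102 CPM in control replicates 1, 2 and 3. Control replicate 3 again lay above 2 of the FlncgKO libraries. The log2 fold change was 0.87 (SE 0.61, adjusted p = 0.478 by edgeR). Of its counts, 69.4% to 79.4% in FlncgKO and 72.5% to 83.6% in control hearts were assigned to the longer of 2 coding transcripts, and both of these carry the iron-responsive element.

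*Epor* encodes the receptor through which erythropoietin keeps red cell precursors alive. It had 21.7, 16.3 and 19.9 CPM in FlncgKO hearts, against 8.60, 7.87 and 17.2 CPM in control hearts. Only FlncgKO replicate 2 lay below control replicate 3. The log2 fold change was 0.79 (SE 0.32), and the adjusted p was 0.231 by edgeR and 0.0680 by DESeq2.

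*Tfrc* encodes transferrin receptor 1, which brings iron into red cell precursors and into dividing cells of all kinds. It had 445, 469 and 424 CPM in FlncgKO replicates 1, 2 and 3, against 325, 323 and 338 CPM in control replicates 1, 2 and 3. The groups did not overlap, and control replicate 3 lay close to the other controls. The level was 1.36 times as high in FlncgKO hearts, a log2 fold change of 0.44 (SE 0.053, adjusted p = 0.0310 by edgeR, 95% interval 0.32 to 0.56). The coding transcript that carries the 4 iron-responsive elements took 82.3% to 86.9% of the *Tfrc* counts in FlncgKO and 76.2% to 83.3% in control hearts, and most of the rest went to a transcript with a retained intron. None of 12 cell cycle genes was called by edgeR or DESeq2, and 1 was lower at an unadjusted p under 0.05 (8.84% of all genes). They summed to 2598 to 2902 CPM in FlncgKO and 2824 to 2989 CPM in control hearts.

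*Trim58* encodes a ubiquitin ligase that is known in mouse erythroblasts to act on dynein around the time the nucleus is expelled. It had few counts, 57, 40 and 28 in FlncgKO replicates 1, 2 and 3, against 7, 4 and 11 in control replicates 1, 2 and 3. As CPM these were 2.55, 1.76 and 1.46 in FlncgKO hearts, against 0.32, 0.19 and 0.53 in control hearts. The groups did not overlap, and the FlncgKO level was 5.47 times as high, a log2 fold change of 2.45 (SE 0.40, adjusted p = 0.0411 by edgeR). Markers of platelets and megakaryocytes were also higher in FlncgKO hearts, with a median log2 fold change of 4.21, beside 2.45 for *Trim58*. All 14 of these markers tested were higher in every FlncgKO library than in any control, as were 15.7% of all genes. Some passed the filter for low counts only through their FlncgKO libraries, such as *Gp9* and *Ppbp* (at most 0.27 and 0.43 CPM in a control). For such genes the direction was partly fixed by the filter. The marker list summed to 1292, 804 and 250 CPM in FlncgKO replicates 1, 2 and 3, against 99.3, 77.7 and 115 CPM in control replicates 1, 2 and 3. None of the 14 passed the edgeR test, and all 14 had an unadjusted p under 0.05 there (13.3% of all genes, higher). DESeq2 called all 14 (6.19% of all genes, higher). Their order among the FlncgKO libraries was that of *Trim58*, and their part in the *Trim58* result was not tested.

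Compared per transcript length, as the authors' TPM, *Tfrc* was the most abundant of the 8 at 244 ± 10.1 TPM in FlncgKO and 181 ± 9.54 TPM in control hearts (SD, n = 3 each). *Alas2* came next at 86.7 ± 26.9 TPM in FlncgKO and 47.3 ± 34.2 TPM in control hearts. *Slc4a1* followed at 77.3 ± 17.6 TPM in FlncgKO and 42.7 ± 26.4 TPM in control hearts, and its difference from *Alas2* was smaller than the SD of either. *Epor*, *Ermap*, *Epb42* and *Rhag* lay between 11.1 and 21.7 TPM in FlncgKO and between 6.18 and 13.0 TPM in control hearts, with neighbours in this order overlapping over their libraries in both groups. *Trim58* was lowest at 1.42 ± 0.42 TPM in FlncgKO and 0.26 ± 0.13 TPM in control hearts. For scale, the embryonic globin *Hbb-y* had 12020 ± 3144 TPM in FlncgKO and 6010 ± 3490 TPM in control hearts.

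Set against the globins of their own library, 5 of the 8 genes (*Alas2*, *Slc4a1*, *Rhag*, *Ermap* and *Epb42*) varied much less over the 6 libraries than in CPM, and *Epor* varied more than these 5. *Alas2* had 10.6, 10.3 and 11.2 counts per 1000 globin counts in FlncgKO replicates 1, 2 and 3, against 11.04, 9.79 and 11.5 in control replicates 1, 2 and 3. *Slc4a1* had 27.1, 24.3 and 23.6 counts per 1000 globin counts in FlncgKO hearts, against 29.5, 25.2 and 24.9 in control hearts. *Rhag* had 1.20, 1.36 and 1.27 in FlncgKO hearts, against 1.53, 1.31 and 1.35 in control hearts. *Ermap* had 3.20, 4.12 and 3.85 in FlncgKO hearts, against 4.31, 3.85 and 3.67 in control hearts. In these 4 genes the groups overlapped, and control replicate 3, which stood apart from the other controls in CPM, lay within the range of the other 5 libraries except for *Alas2*, where it was the highest.

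The log2 ratio to the globins differed between the groups by -0.0056 for *Alas2*, -0.09 for *Slc4a1*, -0.12 for *Rhag* and -0.09 for *Ermap* (exact permutation tests, two-sided, p = 1.0, 0.5, 0.3 and 0.7, not adjusted). With 3 libraries a group, such a p does not show that the ratios were equal. *Epb42* was lower relative to the globins in every FlncgKO library, with 2.07, 1.92 and 2.08 counts per 1000 globin counts, against 2.56, 2.26 and 2.22 in control hearts. Its log2 difference was -0.21 (exact permutation test, p = 0.1, the smallest possible). Such a non-overlapping lower ratio was seen in 12.1% of all genes tested, and with the authors' TPM in place of CPM the difference was -0.080. *Epor* had 2.61, 2.23 and 1.60 counts per 1000 globin counts in FlncgKO hearts, against 2.82, 2.64 and 1.92 in control hearts, with a log2 difference of -0.20 (exact permutation test, p = 0.5). Its ratio was lowest in replicate 3 of both groups.

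**Figure D2:**
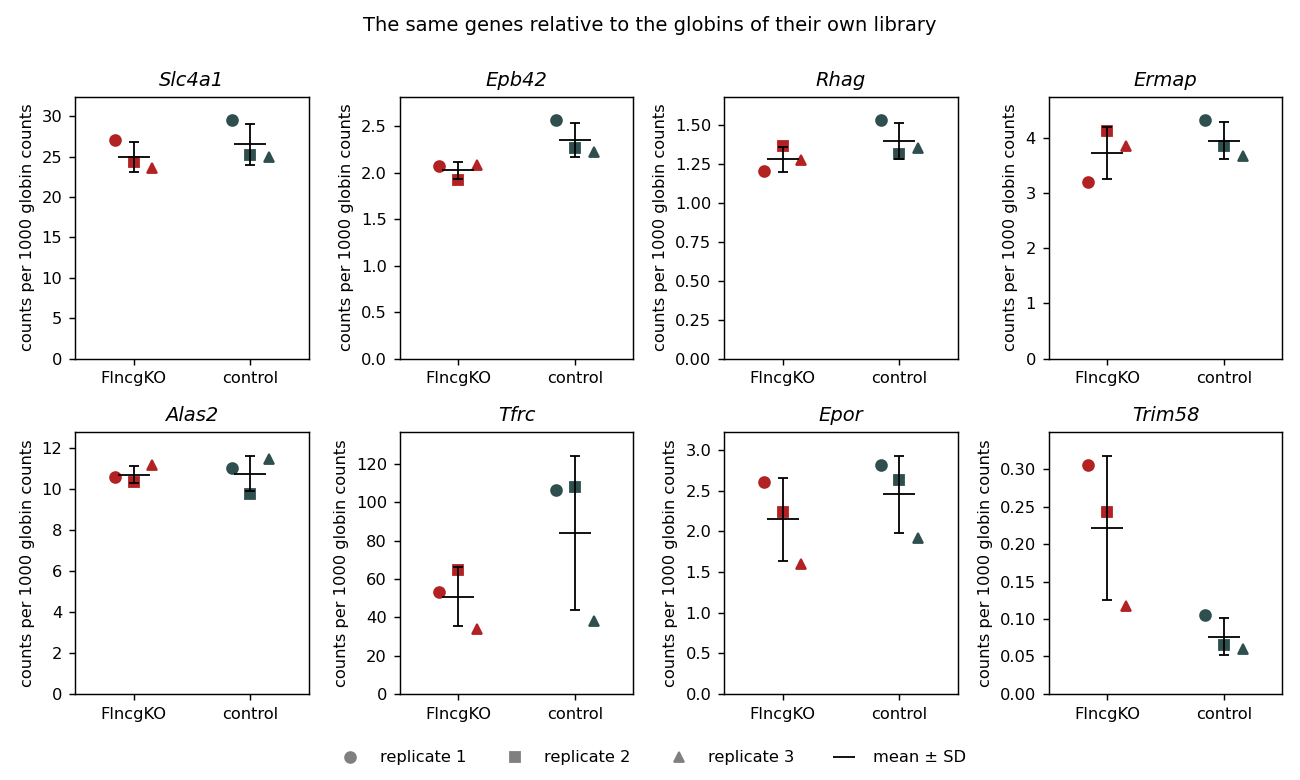
Counts of each gene per 1000 globin counts of the same library, in FlncgKO (red, left) and control (dark, right) hearts, with the marker shape giving the replicate number and the bar the mean ± SD (n = 3). *Alas2* stays between 9.79 and 11.5 in all 6 libraries, *Tfrc* ranges from 34.1 to 108, and for *Trim58* every FlncgKO library lies above every control library.

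*Tfrc* did not follow the globins, and *Trim58* did so at most in part. *Tfrc* had 53.4, 64.4 and 34.1 counts per 1000 globin counts in FlncgKO hearts, against 106, 108 and 37.8 in control hearts, so that its ratio was low wherever globin was high. The log2 difference was -0.63 (exact permutation test, p = 0.3), opposite in sign to its fold change in CPM. *Trim58* had 0.31, 0.24 and 0.12 counts per 1000 globin counts in FlncgKO hearts, against 0.10, 0.065 and 0.059 in control hearts. It was the one member with a higher ratio in every FlncgKO library, a log2 difference of 1.48 (exact permutation test, p = 0.1, the smallest possible). Of all genes tested, 0.399% had such a ratio. *Trim58* passed the filter for low counts through its FlncgKO libraries, so that its direction was partly fixed in advance and this share does not test it. The gap was narrow, between FlncgKO replicate 3 and control replicate 1, which rest on 28 and 7 counts of *Trim58*. With the mean log2 CPM of the globin genes in place of their sum, no member lay wholly above the controls.

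The spread over the 6 libraries puts these ratios in order. The SD of log2 CPM was 0.77 to 0.90 for *Slc4a1*, *Epb42*, *Rhag*, *Ermap* and *Alas2*, and 0.86 for the summed globins. As log2 ratio to the globins, the SD was 0.083 for *Alas2*, 0.12 for *Rhag*, 0.12 for *Slc4a1*, 0.14 for *Epb42* and 0.15 for *Ermap*. Counting error alone would give an SD of about 0.041 for *Alas2* and 0.12 for *Rhag*, so that the *Rhag* ratio varied no more than its counts allow. For *Epor* the SD was 0.63 in log2 CPM and 0.31 as a ratio, and for *Trim58* it was 1.49 and 0.97. *Tfrc* went the other way, with 0.25 in log2 CPM and 0.71 as a ratio. Over all genes tested the median SD was 0.17 in log2 CPM and 0.88 as a ratio, and 994 of the 16048 genes had a smaller spread as a ratio. Ordered by the SD of the ratio, smallest first, *Alas2* was at place 2, *Rhag* at 8, *Slc4a1* at 10, *Epb42* at 17, *Ermap* at 19 and *Epor* at 66 of the 16048, while *Tfrc* was at 1331 and *Trim58* at 12858. The globin genes themselves were part of the order, and their sum was the divisor.

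**Figure D3:**
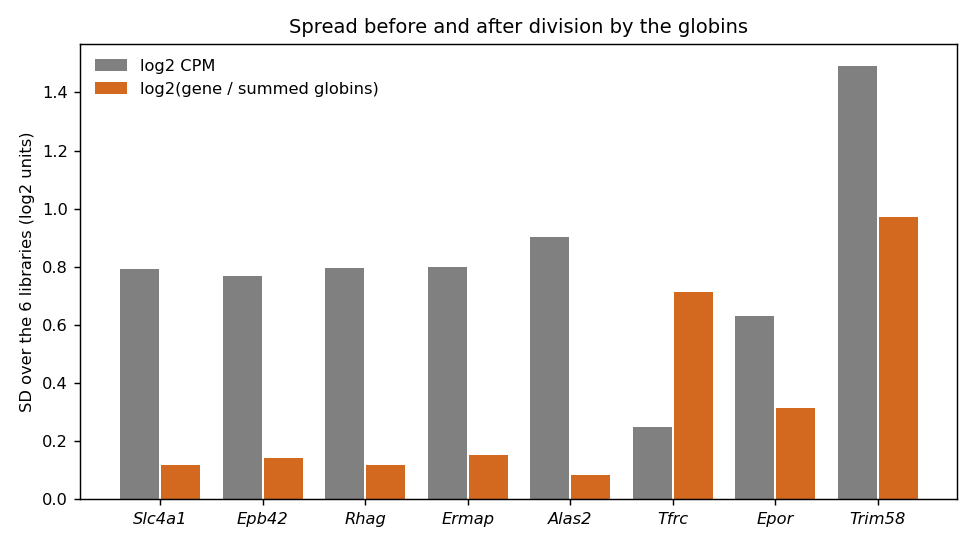
SD over the 6 libraries, in log2 units, of each gene's CPM (grey) and of its ratio to the summed globins (orange). The ratio has the smaller spread in 7 of the 8 genes, and *Tfrc* is the exception.

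The same split appeared with the globin level of each library as a covariate in the edgeR fit. The log2 fold change was then 0.0085 for *Slc4a1*, -0.17 for *Epb42*, -0.076 for *Rhag*, 0.0052 for *Ermap*, -0.11 for *Alas2* and 0.23 for *Epor*, each with an unadjusted p of at least 0.235. *Tfrc* kept 0.44 (SE 0.077, adjusted p = 0.183 by edgeR) and *Trim58* 2.14 (SE 0.54, adjusted p = 0.204 by edgeR), and neither passed the threshold in this fit.

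The fold changes of the 6 genes that did not pass moved with single libraries, and most without control replicate 3. Without it all 8 genes were higher in every FlncgKO library than in both other controls, as were 21.6% of all genes. The log2 fold changes without it were 1.23 for *Epor*, 1.38 for *Epb42*, 1.47 for *Rhag*, 1.49 for *Slc4a1*, 1.49 for *Ermap* and 1.68 for *Alas2*, while *Tfrc* had 0.46 and *Trim58* 2.87. Other libraries moved the 6 genes down, to log2 fold changes of 0.44 to 0.76 without FlncgKO replicate 3, 0.51 to 0.65 without control replicate 1 and 0.46 to 0.60 without control replicate 2. *Epb42* was the lowest of the 6 in each of these 3 sets. Without control replicate 3, *Epor* (adjusted p = 0.0430) and *Tfrc* (adjusted p = 0.0450) were called by edgeR, and *Trim58* was not (adjusted p = 0.0532). In that set 0.577% of all genes were called higher by edgeR. By DESeq2 all 8 were called in the same set, where 5.92% of all genes were called higher. Whether control replicate 3 or the other controls better represent the blood content of control hearts was not tested. The calls of *Tfrc* and *Trim58* by edgeR were lost without FlncgKO replicate 1, without FlncgKO replicate 2, without control replicate 1 and without control replicate 2, where the adjusted p ranged from 0.0527 to 0.197 for *Tfrc* and from 0.0919 to 0.216 for *Trim58*. DESeq2 called both in each of the 6 sets without 1 library.

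**Figure D4:**
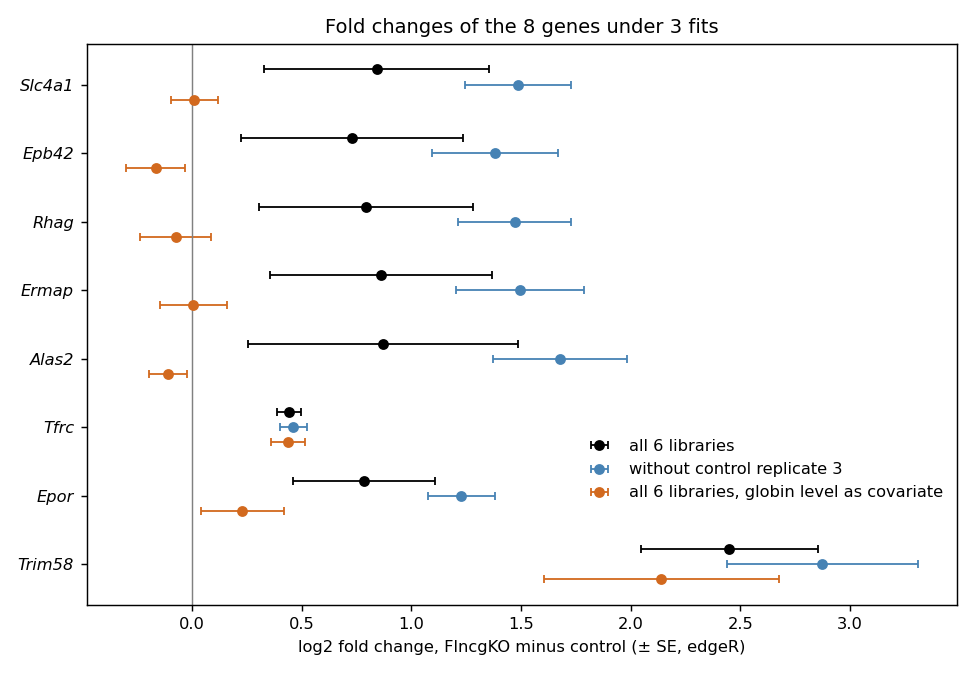
Log2 fold changes (FlncgKO minus control, ± SE, edgeR) of the 8 genes with all 6 libraries (black), without control replicate 3 (blue) and with the globin level as a covariate (orange). For 6 genes the value moves with the setting, from 1.23 to 1.68 without control replicate 3 to between -0.17 and 0.23 with the covariate, while *Tfrc* stays at 0.44 to 0.46.

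Other red cell genes, from lists set by name, had smaller median fold changes than the 8 globin genes tested, whose median log2 fold change was 0.87. None of the 29 red cell membrane and skeleton genes tested was called by edgeR in either direction, an unadjusted p under 0.05 was reached by 9 of them, 8 higher and 1 lower (13.3% and 8.84% of all genes), and 6 were higher by DESeq2 (6.19% of all genes). Their median log2 fold change was 0.42. The 4 with the smallest p were *Piezo1*, a mechanically gated channel (0.27, adjusted p = 0.0534 by edgeR), *Cd47*, the signal that keeps macrophages from engulfing a cell (0.61, adjusted p = 0.0586), *Slc2a1*, the glucose transporter GLUT1 (0.66, adjusted p = 0.0900) and *Slc14a1*, a urea transporter (3.70, adjusted p = 0.0954). *Slc14a1* had 29.4, 18.5 and 5.74 CPM in FlncgKO hearts, against 1.19, 0.63 and 2.32 CPM in control hearts, in the same order among the FlncgKO libraries as *Trim58* and the platelet markers. As a ratio to the globins, 12 of the 29 had a smaller spread than in CPM.

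Of 16 heme synthesis genes 1 was called higher by edgeR and by DESeq2 (1.06% and 6.19% of all genes), *Abcb6*, a porphyrin transporter. It had 46.7, 48.2 and 39.0 CPM in FlncgKO hearts, against 31.0, 27.6 and 32.2 CPM in control hearts, a log2 fold change of 0.56 (SE 0.099, adjusted p = 0.0470 by edgeR). *Ppox* and *Cpox*, enzymes of the late steps, had 0.36 and 0.69 (adjusted p = 0.178 and 0.187), and *Tmem14c*, which helps porphyrin reach the mitochondrial matrix, had 0.29 (adjusted p = 0.319). The median of the 16 was 0.24, and 1 of them had a smaller spread as a ratio to the globins. Of 8 genes of heme export and breakdown none was called by edgeR, and 3 were higher at an unadjusted p under 0.05 (13.3% of all genes). DESeq2 called 1 of them higher (6.19% of all genes). The 4 with the smallest p were *Flvcr2* (0.43), *Hmox1* (0.68), *Blvra* (0.30) and *Flvcr1* (-0.18), with adjusted p of 0.0997 to 0.319 by edgeR.

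Of 23 genes of iron uptake, storage and regulation tested, 1 was called higher by edgeR and 2 by DESeq2 (1.06% and 6.19% of all genes). Their median log2 fold change was 0.080. The one called by edgeR was *Bmp6*, the ligand that sets hepcidin in the adult liver, with 17.6, 18.04 and 15.2 CPM in FlncgKO hearts, against 9.10, 8.16 and 7.83 CPM in control hearts (log2 fold change 1.02, SE 0.11, adjusted p = 0.0310). *Tfr2*, the second transferrin receptor, had 0.95 (adjusted p = 0.180), *Exoc6*, which serves transferrin recycling, had 0.42 (adjusted p = 0.0916), and *Ncoa4*, the ferritin autophagy receptor, had 0.30 (adjusted p = 0.208). Of 14 genes of erythropoietin signalling 1 was called higher by edgeR (1.06% of all genes), the adaptor *Irs2*. DESeq2 called 5 higher and 1 lower, where 6.19% and 2.26% of all genes were. *Irs2* had 106, 91.9 and 75.4 CPM in FlncgKO hearts, against 54.6, 47.5 and 48.99 CPM in control hearts (log2 fold change 0.85, SE 0.12, adjusted p = 0.0377 by edgeR). *Stat5b* (0.40), *Bcl2l1* (0.33) and *Gab1* (-0.24) did not pass by edgeR. The calls of *Abcb6*, *Bmp6* and *Irs2* were each lost without FlncgKO replicate 1, FlncgKO replicate 2, control replicate 1 or control replicate 2, with adjusted p up to 0.216, 0.191 and 0.202 by edgeR, and those of *Abcb6* (adjusted p = 0.0732) and *Irs2* (adjusted p = 0.0792) also without control replicate 3. Many of these genes are also expressed outside blood.

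Of 21 late erythroid genes tested, 0 were called by edgeR, 7 were higher at an unadjusted p under 0.05 (13.3% of all genes), and 5 were higher by DESeq2 (6.19% of all genes). Their median log2 fold change was 0.59. The 4 with the smallest p were *Ube2o* (0.29), *Bnip3l*, which clears mitochondria (0.66), *Cpeb4* (0.29) and the transcription factor *Tal1* (0.95), with adjusted p of 0.0681 to 0.101 by edgeR.

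The genes whose profile over the 6 libraries lay closest to each member are given as a description. Likeness was the root mean square difference of log2 CPM, each gene centred on its own mean, among 14333 other genes of at least 1 CPM. For *Alas2* the closest were *Hba-a1*, *Hba-a2*, *Ikzf1*, *Gm37527* and *Hbb-bh1*, at 0.077 to 0.11. For *Slc4a1* they were *Ikzf1*, *Car2*, *Hbb-bh1*, *Hemgn* and *H2-T23*, at 0.088 to 0.091. For *Epb42* they were *Car2*, *Slc4a1*, *Rhag*, *Ehd3* and *Acp5*, at 0.088 to 0.10. *Rhag* lay closest to *Errfi1*, *Ermap*, *Acp5*, *Epb42* and *Car2*, and *Ermap* to *Rhag*, *Acp5*, *Errfi1*, *Hbb-y* and *Hemgn*. *Epor* lay closest to *Stk10*, *Spns2*, *Plekho2* and *Cited4*, at 0.067 to 0.13. Among the 50 closest genes, 19 to 24 were on the red cell lists for each of these 6 genes. The lists counted, which include the 8 genes and the globins, held 8 to 29 tested genes each, few beside the 14333 compared. For *Tfrc* 0 of the 50 were on them, which with so few listed genes is not a result about *Tfrc*. The closest to *Tfrc* were *Flna*, *Gm29562*, *Plpp5*, *Actn4* and *Agpat4*, at 0.038 to 0.042. For *Trim58* 3 of the 50 were on the red cell lists, and 1 of the 50 was on the platelet and megakaryocyte list. The closest to *Trim58* were *Itgb2*, *Syne3*, *Treml2*, *Syt13* and *Hpse*, at 0.20 to 0.26.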

How the data were processed

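The deposited files hold the authors' salmon output per transcript (version not given in the sources used here) for 6 libraries, as estimated counts and TPM on GENCODE M22 (GRCm38.p6). Per the labels the authors tested with DESeq2 1.22.2. Estimated counts were summed per gene through GENCODE M21, also GRCm38, and rounded. Of 140658 transcripts 0.37% had no gene there and were left out, with 0.108% to 0.131% of the counts. Genes were filtered with filterByExpr (minimum count 10) and tested with edgeR 4.0.16 (quasi-likelihood, robust, TMM) in R 4.3.3, after a test on simulated data. DESeq2 1.42.0 was an alternative. The globin ratio was the log2 of a gene's CPM over the summed CPM of 10 globin genes, where near-identical copies (*Hba-a1* and *Hba-a2*, *Hbb-bs* and *Hbb-bt*) may share reads. The authors' TPM values served for levels between genes and as an alternative.

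The 8 genes and all lists were chosen with earlier results of these data known. Genes named are the 8, the globins tested, from each list up to 4 genes by smallest p and all called genes where 5 or fewer were, the 5 genes closest in profile, and *Flnc*. For *Epor* 4 of those 5 are given, and the other is not reported here. Of the marker lists, summed levels are given for cardiomyocytes, for platelets and megakaryocytes, and for yolk sac and liver endoderm. For endothelium and blood progenitors calls are given. Macrophage and leukocyte markers summed to 17.7, 12.9 and 39.0 CPM in FlncgKO replicates 1, 2 and 3, against 12.3, 14.5 and 24.6 CPM in control replicates 1, 2 and 3. Alternatives were other scaling and filters, length offsets, a block for the replicate number, globin and Y-linked covariates, and leaving out each library. DESeq2 without each library was chosen after seeing the data.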

Additional observations from a re-analysis of the deposited data

How the results depend on the processing

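The number of the 8 genes called higher by edgeR was 2, and it was 2 with RLE scaling, with total counts only, with no filter for low counts and with DESeq2. It was 1 with at least 10 counts in every library, where *Trim58* was not tested, 1 with length offsets (*Trim58* adjusted p = 0.0539), 0 with the globin covariate and 0 with the Y-linked covariate. Leaving out 1 library gave 0 to 2 with edgeR, and 2 to 8 with DESeq2. The number called lower was 0 in every setting run. Genes in all called higher were 170, against 392 with no filter, 63 with length offsets, 1 with the globin covariate, 0 with the Y-linked covariate and 987 with DESeq2. Leaving out 1 library gave 1 to 989 with edgeR. With DESeq2 it gave 777, 520 and 1293 without FlncgKO replicates 1, 2 and 3, and 549, 553 and 927 without control replicates 1, 2 and 3. The causes of these changes were not tested. The 8 genes wholly above the controls in CPM numbered 2, 1 with 10 counts in every library, and 2 to 8 without 1 library. Relative to the globins 1 gene lay wholly above, 0 with the mean log2 CPM of the globin genes.

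Libraries with the same number correlated in their deviations from the group means at 0.0602, 0.647 and 0.673 for replicates 1, 2 and 3. FlncgKO replicate 1 correlated near 0 with every control, at 0.0602, 0.0356 and -0.0642 for control replicates 1, 2 and 3. FlncgKO replicate 2 had -0.69 with control replicate 3, and FlncgKO replicate 3 had -0.616 with control replicate 2. These values cannot decide whether the numbers pair the libraries. The labels speak of 3 pairs, but no source says that a number marks a litter. With a replicate block edgeR called 3 of the 8 genes (*Epb42* as well, adjusted p = 0.0493) and 512 of 16048 genes higher. *Ermap*, *Rhag*, *Epor*, *Alas2* and *Slc4a1* had adjusted p of 0.0516, 0.0578, 0.121, 0.129 and 0.134 by edgeR. Their unadjusted p was 0.0021 to 0.0205, where 2452 genes had one under 0.05 with a positive fold change. The SE of *Slc4a1* fell from 0.51 to 0.24. A mean of differences within numbers equals the difference of group means, so the ratio differences could not change.

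Among 47 named genes the direction turned with the globin covariate in *Epb42* (-0.17), *Rhag* (-0.076), *Alas2* (-0.11), *Hba-a1* (-0.17), *Hba-a2* (-0.18), *Hbb-bt* (-1.33) and *Hbb-bs* (-1.98). The globin genes are part of the globin covariate, so their values in that fit were partly fixed in advance. The direction also turned in *Hbb-bt* (-0.11) and *Hbb-bs* (-0.51) with the Y-linked covariate. Without FlncgKO replicate 3 they had -0.47 and -1.02, the lowest of the leave-one-out values, and without control replicate 3 they had 2.63 and 2.96, the highest. None of these values passed the test. *Trim58* is limited by depth, with 4 to 57 counts in a library.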

Other observations

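The adult-type beta globins *Hbb-bs* and *Hbb-bt* varied more between libraries than any of the 8 genes and were highest in replicate 3 of both groups. *Hbb-bs* had 87.1, 20.5 and 399 CPM in FlncgKO replicates 1, 2 and 3, against 33.8, 9.41 and 285 CPM in control replicates 1, 2 and 3. *Hbb-bt* had 23.4, 9.84 and 81.2 CPM in FlncgKO hearts, against 8.10, 4.10 and 56.6 CPM in control hearts. The embryonic globins *Hbb-y*, *Hbb-bh1* and *Hba-x* made up 82.8%, 84.4% and 77.1% of the globin CPM in FlncgKO replicates 1, 2 and 3, against 82.2%, 83.3% and 78.2% in control replicates 1, 2 and 3.

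Of 12 markers of endothelium and endocardium, 1 was called higher (1.06% of all genes) and 0 lower by edgeR. DESeq2 called 5 higher and 2 lower (6.19% and 2.26% of all genes), so that the list did not move one way. Of 8 blood progenitor markers tested, 1 was called higher by edgeR and 2 by DESeq2 (1.06% and 6.19% of all genes), and none lower. The genes called by edgeR were *Emcn* of the endothelium (log2 fold change 1.24, adjusted p = 0.0353 by edgeR) and *Cd34* of endothelium and blood progenitors (0.73, adjusted p = 0.0310 by edgeR), in both of which 3 of 3 FlncgKO libraries lay above all controls. *Emcn* had 53.9, 68.7 and 61.2 CPM in FlncgKO hearts, against 20.5, 29.9 and 27.4 CPM in control hearts. *Cd34* had 84.3, 97.9 and 83.4 CPM in FlncgKO hearts, against 49.5, 58.2 and 52.5 CPM in control hearts. The 2 called lower by DESeq2 are named after their values were seen. *Npr3* of the endocardium had 80.5, 107 and 110 CPM in FlncgKO hearts, against 128, 169 and 147 CPM in control hearts (log2 fold change -0.58, adjusted p = 0.101 by edgeR and 0.000784 by DESeq2). *Tek*, the angiopoietin receptor, had 71.05, 89.7 and 87.7 CPM in FlncgKO hearts, against 101, 123.2 and 102 CPM in control hearts (log2 fold change -0.40, adjusted p = 0.109 by edgeR and 0.0122 by DESeq2). Leaving out 1 library gave adjusted p of 0.0215 to 0.191 for *Emcn* and 0.0033 to 0.197 for *Cd34* by edgeR, and both calls were lost without FlncgKO replicate 1 or any 1 control library, that of *Emcn* also without FlncgKO replicate 2. Markers of yolk sac and liver endoderm summed to 18.7, 12.5 and 60.3 CPM in FlncgKO replicates 1, 2 and 3, against 153, 16.3 and 38.9 CPM in control replicates 1, 2 and 3, with the highest sum in control replicate 1.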
